A study of Mus musculus with 13 samples.

Results

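Mouse natural killer (NK) cells grown in interleukin-15 (IL-15) under the condition labelled HD were compared with and without engagement of the receptor NK1.1, across all measured genes. Every sample whose labels gave HD IL-15 was taken, which made 5 of the 13 samples of the study: 3 stimulated with anti-NK1.1 for 6 hours and 2 left unstimulated. Both groups were NK cells of genotype WT and strain C57BL/6 that had spent 72 hours in HD IL-15, so the culture was shared and the antibody was the labelled difference. The labels do not spell out HD, and they do not say whether IL-15 stayed in the medium during stimulation or whether the unstimulated cells were kept for the same 6 hours. Nor do they name the animals or cultures behind each replicate, so the spread that p-values rest on may be technical. The other 8 samples were 3 naive unstimulated, 3 naive anti-NK1.1 and 2 labelled LD IL-15 with anti-NK1.1.

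NK cells are lymphocytes that kill infected or transformed cells and secrete cytokines. NK1.1 is an activating surface receptor of C57BL/6 NK cells, encoded by *Klrb1c*. It lacks an immunoreceptor tyrosine-based activation motif of its own and works through an adaptor that holds one. Crosslinking it with antibody starts a cascade of Syk-family kinases, phospholipase C-γ, calcium and MAP kinases that ends in NFAT, AP-1 and NF-κB. IL-15 sustains survival, growth and metabolic activity of NK cells through JAK and STAT proteins and mTOR.

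Levels are in CPM, the back-transformed value scaled to a fixed total per library, and are given for unstimulated replicates 1 and 2 and for anti-NK1.1 replicates 1, 2 and 3 in that order. Changes are log2 fold changes (anti-NK1.1 minus unstimulated) ± standard error from 1 limma model, with p-values adjusted by the Benjamini-Hochberg method over all 11543 tested genes. A gene was called higher or lower at an adjusted p under 0.05. A log2 change of 1 is a doubling. The median gene of the 5 libraries had 125 to 222 recovered reads, and 518 to 809 genes per library had none, with unstimulated replicate 1 the shallowest. Across genes, Pearson's r was 0.967 between the unstimulated libraries, 0.968 to 0.974 between anti-NK1.1 libraries and 0.891 to 0.901 between the groups, and genes are not independent replicates. All 5 libraries carried the same pool number in the file header.

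The labelled cell type was checked first. None of the 12 NK cell markers was without reads, and 9 of them were called lower with anti-NK1.1. Their summed level was 13725 and 14454 CPM without stimulation and 7129, 7764 and 5611 CPM with it. Without unstimulated replicate 2, 3 of the 12 were called lower. The 5 T cell markers in the table summed to 38.5 to 44.7 CPM unstimulated and 35.4 to 42.7 CPM stimulated, with 1 called higher, *Cd6* (12, 13.4 and 11 CPM against no read, at least 26.5-fold). Over all 5 libraries, the 5 B cell markers summed to 0.466 to 0.991 CPM and the 5 neutrophil markers to 4.21 to 7.23 CPM. *Cd79a* and *Ms4a1* of B cells, *Mpo* of neutrophils, *Flt3* and *Siglech* of dendritic cells, and the globin genes *Hba-a1*, *Hbb-bs* and *Hbb-bt* had no read in any of the 5 libraries. Yet the 8 erythroid and platelet markers, 5 of them without a read, summed to 779 and 569 CPM unstimulated. With anti-NK1.1 this sum was 690, 628 and 714 CPM, and 0 of the 8 were called. The 5 ILC1 markers summed to 198 and 169 CPM without and 214, 180 and 237 CPM with anti-NK1.1. Basophil and mast cell markers, 6 in number, summed to 9.52 to 22.4 CPM over all 5 libraries. The 14 macrophage, monocyte and dendritic cell markers summed to 2289 and 1926 CPM without and 708, 684 and 524 CPM with anti-NK1.1. Most of that sum was *Ccr2*, a chemokine receptor that NK cells express too, and 2 of the 14 were called higher and 3 lower, or 1 lower without unstimulated replicate 2. The part of these marker shifts in the results below was not tested. In bulk RNA, fewer cells of a type and less RNA per cell cannot be told apart.

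With anti-NK1.1, 1834 genes were higher, which is 15.9% of those tested, and 1989 were lower, which is 17.2%. Without unstimulated replicate 2 the counts were 1274 and 1235. At least a 2-fold difference was seen for 1446 of the higher and 1527 of the lower genes. By fitted change, 122 genes rose and 30 fell by at least 16-fold. Of the higher genes, 93 had no read in both unstimulated libraries, and 23 of the lower had none in all 3 anti-NK1.1 libraries. The size of such changes depends on the number added before the log2. The groups also differ in number and depth of libraries, so the unevenness of the 16-fold counts was not tested. Every stimulated library lay on the same side of both unstimulated ones for 3802 of the 3823 called genes, and for 6875 of all tested genes. Counts of each gene list below are to be read against the 15.9% higher and 17.2% lower of all tested genes. The median change over all tested genes was -0.01. The deposited values were quantile-normalized to the same distribution, so this value cannot show a global shift.

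**Figure D1:**
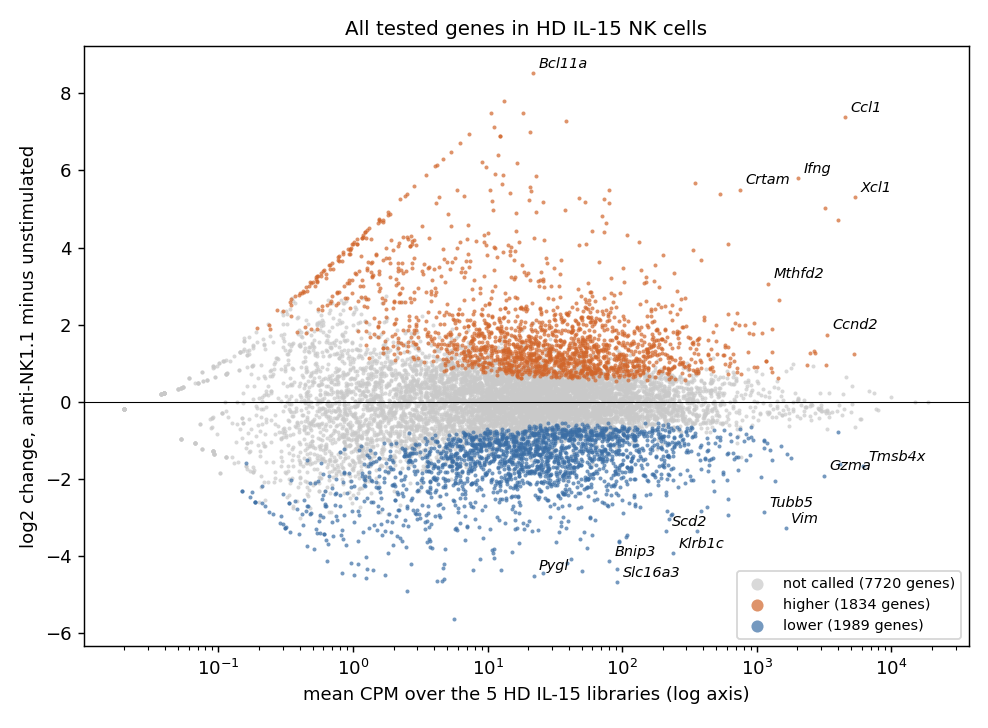
Log2 change with anti-NK1.1 in HD IL-15 cells (vertical axis) against the mean CPM over the 5 libraries (horizontal log axis) for the 11543 tested genes, with 1834 called higher in orange, 1989 called lower in blue and the rest in grey. Called genes lie on both sides of 0 over most of the range of levels, and *Bcl11a*, at 8.52, has the largest increase of those with a mean of at least 20 CPM.

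Among called genes whose mean reached 20 CPM and whose groups were separate, the leading increases by fitted log2 change started with *Bcl11a*, *Ccl1*, *Anxa8* and *Fgf18*. *Bcl11a*, a zinc finger repressor better known from B cell and erythroid development (chromosome 11, 24078056 to 24174123, plus strand, mm10), was without reads in both unstimulated libraries and stood at 35.5, 41 and 32.6 CPM after anti-NK1.1. Against a floor of 3 reads per unstimulated library, this is at least 79.5-fold higher. *Crtam*, which encodes an adhesion receptor of activated NK and CD8 T cells, was at 27.2 and 27.5 CPM unstimulated and at 1304, 1232 and 1186 CPM stimulated (5.50 ± 0.17, adjusted p = 7.62e-11). The replicates lay close together within each group and the groups were far apart. *Cd83*, a surface marker of activation, moved from 2.53 and 1.49 to 81.1, 79.6 and 75.3 CPM (5.28 ± 0.26). *Mgll*, monoacylglycerol lipase, rose by 5.84 ± 0.41 and *Bcat1*, the cytosolic branched-chain aminotransferase, by 5.50 ± 0.68. *Anxa8*, an annexin, was called higher with a fitted change of 7.29 ± 0.43, but the size of its change is uncertain. The *Anxa8* change was smaller with a larger number added before the log2 and larger on recovered reads. It also moved with the unstimulated library left out.

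The 15 leading decreases by the same rule started with *Slc16a3*, *Pygl*, *Scd1* and *Fads2*, which act in lactate export, glycogen breakdown and fatty acid desaturation. *Cbfa2t3*, a transcriptional co-repressor of the ETO family (chromosome 8, 122625141 to 122699109, minus strand), fell from 201 and 223 CPM to 9.92, 12.9 and 8.7 CPM (-4.34 ± 0.22, adjusted p = 1.30e-08). All 3 stimulated libraries were far below both unstimulated ones. *Gimap7*, a GTPase of the immunity-associated family, fell by 3.62 ± 0.24 and *Rasa3*, a GTPase-activating protein that restrains Ras and Rap, fell by 3.55 ± 0.27. *Klrb1c*, the gene of the ligated receptor, was the ninth largest decrease, at 502 and 589 CPM without and 31, 42.1 and 35 CPM with antibody.

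**Figure D2:**
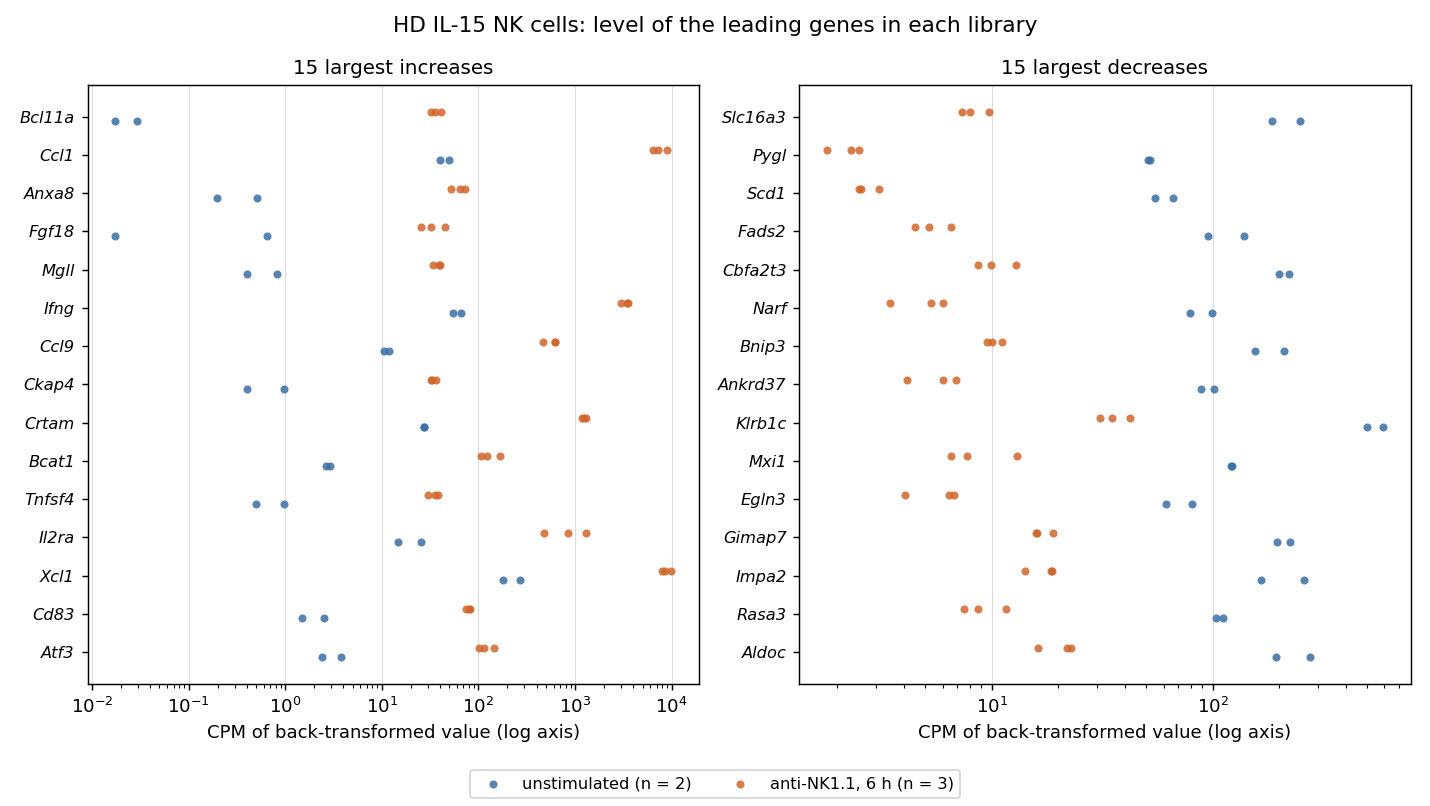
CPM in each library (horizontal log axis) of the 15 largest increases (left) and 15 largest decreases (right) among called genes whose mean reached 20 CPM and whose groups were separate. Blue points are the 2 unstimulated and orange points the 3 anti-NK1.1 libraries. The blue points of *Bcl11a* are libraries without a read, drawn at the value that the scaling gives a count of 0.

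Among secreted products, the chemokine genes that passed the test changed in 1 direction. Of 18 tested chemokine genes 10 were higher and 0 lower, against 15.9% and 17.2% of all tested genes, with a median change of 1.70. Without unstimulated replicate 1, 7 were called higher. *Ccl1*, the ligand of CCR8 (chromosome 11, 82176657 to 82305690, minus strand), was at 50.2 and 40.2 CPM unstimulated and at 9004, 6362 and 7273 CPM with anti-NK1.1 (7.37 ± 0.25, adjusted p = 9.90e-11). No stimulated library was near an unstimulated one. *Ccl9*, a macrophage and dendritic cell attractant, moved from 11.8 and 10.5 to 627, 621 and 469.5 CPM (5.66 ± 0.23). *Xcl1*, which attracts cross-presenting dendritic cells, was at 179.7 and 269 CPM and then at 7926, 9853 and 8459 CPM. *Ccl3* stood at 5604, 5462 and 4686 CPM and *Ccl4* at 7273, 5818 and 6362 CPM after stimulation, against 173 and 152 and 202 and 299.8 CPM before it. Both chemokine genes lie near *Ccl9*, *Ccl5* and *Ccl6* on chromosome 11. *Ccl5* was at 603 and 1006 CPM without and 1366, 1447 and 1056 CPM with anti-NK1.1 (0.71 ± 0.28, adjusted p = 0.0656). Its stimulated values were all above the unstimulated ones, and it was called with the stricter filter (adjusted p = 0.0456), robust moderation (adjusted p = 0.0417), recovered reads (adjusted p = 0.0386) and without unstimulated replicate 2 (1.08, adjusted p = 0.0376). *Ccl6* changed by 0.37 ± 0.39 and its groups overlapped. *Ccl5* and *Ccl6* were named after their values were seen. The summed level of the 18 genes was 1252 and 1805 CPM unstimulated and 31847, 29631 and 28357 CPM stimulated. *Ccl3* and *Ccl4* have close relatives in the genome, so reads could be shared with them.

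Of 24 tested cytokine and growth factor genes, 15 (62.5%) were higher and 5 (20.8%) lower. The share lower was near the 17.2% of all tested genes. *Ifng*, the effector cytokine of NK cells, stood at 54.7 and 65.9 CPM unstimulated and at 3488, 3571 and 2989 CPM stimulated. The lowest stimulated library was still many times the highest unstimulated one. *Pdgfa*, a platelet-derived growth factor chain, moved from 63.9 and 50.2 to 844, 1248 and 848 CPM (4.09 ± 0.30, adjusted p = 3.48e-07). *Hbegf*, a ligand of the EGF receptor, moved from 18.9 and 18.3 to 155, 164 and 159.9 CPM (3.10 ± 0.43). *Areg*, another EGF receptor ligand, stood at 12.1, 14.1 and 33.2 CPM and *Csf1*, the macrophage growth factor, at 4.71, 4.21 and 6.93 CPM after stimulation. *Fgf18*, a fibroblast growth factor, stood at 25.6, 45 and 32.1 CPM. Each of these 3 genes was called higher and had no read in 1 unstimulated library and at most 4 in the other, so the size of the change is not given. *Il6* had no read unstimulated and 1.62, 0.956 and 2.69 CPM stimulated, at least 3.83-fold higher. The 5 lower genes were *Tgfb3* (-4.56 ± 0.74), *Vegfb* (-2.52 ± 0.29), *Il18*, *Mif* (-1.48 ± 0.27) and *Il16* (-1.13 ± 0.22). *Il18* and *Il16* were named after their values were seen. *Il18* was not called without unstimulated replicate 2 (-1.11, adjusted p = 0.279), anti-NK1.1 replicate 2 (adjusted p = 0.0665) or anti-NK1.1 replicate 3 (adjusted p = 0.0587).

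Ligands of the tumour necrosis factor (TNF) superfamily costimulate or kill neighbouring cells. Of 13 tested members 8 (61.5%) were higher and 3 (23.1%) lower, with a median of 4.41. *Tnfsf8*, CD30 ligand, moved from 5.21 and 2.42 to 141, 133 and 113 CPM (5.15 ± 0.46, adjusted p = 1.93e-06). *Tnfsf4*, OX40 ligand, moved from 0.979 and 0.501 to 38.5, 35.2 and 30.2 CPM (5.47 ± 0.40), and *Tnfrsf4*, its receptor OX40, was at 0.513 and 0.0175 CPM and then at 20, 14.1 and 13.8 CPM (adjusted p = 0.000247). *Tnfsf11*, RANK ligand, was at 0.513 and 1.22 CPM and then at 38.5, 33.1 and 27.4 CPM. In each case the 3 stimulated values lay close together and above both others. *Lta*, lymphotoxin-α, rose by 5.18 ± 0.38 while *Ltb*, its membrane-bound partner, fell by 1.56 ± 0.26 and was named after its values were seen. *Cd70*, the ligand of CD27, had no read unstimulated and 17.1, 20.3 and 15.6 CPM stimulated, at least 38.6-fold higher.

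Many surface receptors that activate or inhibit NK cells were lower. Of 30 tested members 15 (50%) were lower and 2 (6.7%) higher, with a median of -0.84. Without unstimulated replicate 2, 8 were lower, and without unstimulated replicate 1 none was higher. Besides *Klrb1c*, its relatives in the NK complex on chromosome 6 included *Klrb1b*, an inhibitory receptor, which fell from 85 and 109 to 23.7, 24.6 and 22.2 CPM (-2.03 ± 0.24, adjusted p = 2.38e-05), and *Klrb1a*, which fell by 1.78 ± 0.24. These paralogs are similar in sequence, so the authors' counting could have shared reads among them. *Fcgr3*, the Fc receptor of antibody-dependent killing (chromosome 1, 171051174 to 171064935, minus strand), went from 210.1 and 208 CPM to 31.3, 25.5 and 28.7 CPM. *Cd226*, the activating receptor DNAM-1, fell by 2.13 ± 0.34. *Klrk1*, the gene of NKG2D, was at 123 and 166 CPM and 164, 164 and 123 CPM, so its groups overlapped, and it was named after its values were seen.

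Kinases and adaptors downstream of such receptors were lower more often than higher. Of 37 tested members 17 (45.9%) were lower and 3 (8.1%) higher, with a median of -0.75. The chain *Cd247* fell from 48 and 65.2 to 12.8, 13.6 and 11.7 CPM (-2.13 ± 0.24), the kinase *Syk* from 19.3 and 24.4 to 5.26, 3.86 and 6.05 CPM (-2.11 ± 0.27) and the kinase *Lck* from 337 and 483 to 138, 136 and 98.3 CPM (-1.72 ± 0.24). The adaptor *Skap1* fell by 2.40 ± 0.30, the lipid kinase *Pik3cd* fell by 1.76 ± 0.25 and the Ras activator *Rasgrp1* fell by 1.47 ± 0.25. *Txk*, a Tec-family kinase, fell by 1.05 ± 0.22. The negative regulators were also more often lower, with 11 of 27 lower (40.7%) and 4 higher (14.8%). Beside 17.2% and 15.9% of all tested genes, their share higher was near that of all. The adaptor *Dok2* fell by 2.75 ± 0.22, the adaptor *Sla2* fell by 2.44 ± 0.29, the phosphatase *Inpp5d* (SHIP-1) fell by 1.61 ± 0.25 and the kinase *Csk* fell by 1.27 ± 0.22. *Sla*, the close relative of *Sla2*, rose by 2.32 ± 0.23, and *Spry2*, an inhibitor of the MAP kinase route, by 1.38 ± 0.24.

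Calcium genes split within families. *Orai1*, the pore of store-operated calcium entry, moved from 62.8 and 72.8 to 259, 312 and 198 CPM (1.90 ± 0.26, adjusted p = 7.49e-05). The calcium pump genes *Atp2a2* and *Atp2a3* went in opposite directions (1.85 ± 0.37 and -2.01 ± 0.28). The plasma membrane pump *Atp2b4* fell by 2.39 ± 0.24 and the calcium release channel *Itpr3* fell by 1.94 ± 0.25. In all, 5 of 26 tested calcium and NFAT genes were higher and 7 lower, and 3 and 4 without unstimulated replicate 2. These are 19.2% and 26.9% of the list, not far from the shares of all tested genes.

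Of 32 activation and costimulatory receptors 15 were higher and 6 lower, and 3 were lower without unstimulated replicate 2. The share lower in the main fit was 18.75%, near the 17.2% of all tested genes, and the share higher was 46.9%. *Cd44*, a hyaluronan receptor, moved from 244 and 229 to 1011, 1006 and 931 CPM (2.05 ± 0.19). *Cd69*, which retains lymphocytes in tissue, moved from 28.3 and 33.6 to 129.7, 132 and 97.1 CPM (1.94 ± 0.22), although it lies in the same NK complex as *Klrb1c*. The checkpoint receptor *Havcr2* (TIM-3) rose by 2.03 ± 0.31 and the ligand *Pdcd1lg2* (PD-L2) by 1.77 ± 0.21. The ectonucleotidase *Entpd1* (CD39) fell by 1.87 ± 0.32.

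Of 21 trafficking receptors 10 were lower and 2 higher, with a median of -1.26, and 1 was higher without unstimulated replicate 1 or any anti-NK1.1 library. *Cxcr3*, the receptor of interferon-induced chemokines, fell from 18.4 and 22 to 1.62, 0.956 and 0.903 CPM (-4.08 ± 0.30, adjusted p = 3.48e-07). *Selplg*, the P-selectin ligand, fell from 222 and 332 to 43.3, 43.2 and 37.2 CPM (-2.72 ± 0.23). For both genes, the unstimulated libraries were several times the stimulated ones. The sphingosine-1-phosphate receptor *S1pr4* fell by 2.35 ± 0.23 and *Ccr2* fell by 1.95 ± 0.26. *Gpr65*, a proton-sensing receptor, was higher (1.99 ± 0.25).

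Cytokine receptor genes moved in both directions. The chain *Il2ra* (CD25) was at 25.3 and 14.6 CPM unstimulated and at 1309.9, 838 and 483 CPM stimulated, with anti-NK1.1 replicate 1 the highest. The interleukin-21 receptor gene *Il21r* rose by 2.12 ± 0.34 and *Il1rl1*, the interleukin-33 receptor, from 0.752 and 0.583 to 12.4, 13.4 and 19.5 CPM (4.33 ± 0.32, adjusted p = 3.48e-07). *Ifngr1*, a chain of the interferon-γ receptor, fell from 343 and 542 to 71.8, 70.4 and 43.9 CPM (-2.83 ± 0.26, adjusted p = 2.88e-06), while its ligand gene *Ifng* rose. The interleukin-12 receptor chain *Il12rb1* fell by 1.90 ± 0.35, the interleukin-18 receptor chain *Il18r1* fell by 1.83 ± 0.31, the interleukin-10 receptor chain *Il10ra* fell by 2.10 ± 0.25 and the type I interferon receptor chain *Ifnar2* fell by 1.44 ± 0.27. *Il2rb*, the chain that receives IL-15, fell by 0.99 ± 0.25, which was not called without unstimulated replicate 2 (adjusted p = 0.104). In all, 5 of 28 were higher and 10 lower, 17.9% and 35.7% of the list, against 15.9% and 17.2% of all tested genes. Of the signal transducers behind them, *Stat5a* moved from 22.6 and 32.4 to 269, 230.2 and 201 CPM (3.10 ± 0.24, adjusted p = 5.40e-07) and *Jak2* rose by 1.58 ± 0.23, while *Stat4*, which relays interleukin-12, fell by 1.39 ± 0.29.

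Transcription factors of the acute response included the AP-1, EGR, NR4A, IRF and NF-κB families. Of 23 AP-1 and ATF genes 12 were higher and 1 lower, and 0 were lower without either unstimulated library or anti-NK1.1 replicate 2. *Batf3* was at 0.0291 and 0.198 CPM unstimulated, which is 0 and 1 reads, and at 15.4, 25.6 and 20.2 CPM stimulated (adjusted p = 2.20e-07). *Atf3* moved from 3.78 and 2.42 to 102, 114 and 146 CPM (5.27 ± 0.30, adjusted p = 3.91e-08), *Fosl1* from 0.647 and 0.903 to 18.1, 14.6 and 12.6 CPM (4.15 ± 0.33) and *Mafk* from 2.42 and 3.19 to 19.9, 24.9 and 16.7 CPM (2.83 ± 0.25). In each the stimulated values exceeded both unstimulated ones. *Jun* was at 226 and 142 and 87.5, 80.4 and 99.2 CPM (-1.01 ± 0.40, adjusted p = 0.0649) and was not called. It was called lower with the 5 HD libraries alone (adjusted p = 0.0218) and with library pool as a factor (adjusted p = 0.0328), and it was named after its values were seen. Among EGR, NR4A and IRF genes 9 of 23 were higher and 3 lower. *Irf4*, which grades lymphocyte responses by receptor strength, moved from 5.21 and 3.58 to 89, 123 and 78.7 CPM (4.44 ± 0.28, adjusted p = 1.20e-07). *Nr4a3* moved from 19.5 and 20.5 to 214, 258 and 179 CPM (3.42 ± 0.33) and *Nr4a2* from 62.8 and 43.1 to 455, 405 and 307 CPM (2.88 ± 0.25). *Irf1* and *Irf7*, factors of the interferon response, changed by -1.93 ± 0.21 and -1.69 ± 0.25.

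Genes of NF-κB and its feedback were higher in 16 of 30 cases (53.3%) and lower in 0. *Rel* moved from 44 and 29.3 to 359, 256 and 249 CPM (2.98 ± 0.42, adjusted p = 9.16e-05), *Nfkb2* from 23.5 and 41.8 to 156, 129 and 123 CPM (2.11 ± 0.27) and *Nfkbia*, the inhibitor IκBα, from 408 and 315 to 1279, 1219 and 1179.7 CPM (1.77 ± 0.25). The deubiquitinase *Tnfaip3* (A20) rose by 1.56 ± 0.22. *Rela* was at 33.4 and 48.4 CPM unstimulated and 40.5, 34.7 and 36.3 CPM stimulated (-0.12 ± 0.24), so the groups overlapped, and it was named after its values were seen. The letters GGANTTTCC (N is any base) were looked for on both strands of the 250 bases before the RefSeq starts. They stood in the promoters of 17.4% of 23 matched genes of this list, 3 of 20 cytokine genes and 1.4% of the 9246 tested genes with a promoter in the table. Of genes called higher, 2.2% had them in their promoters. Those of *Il6* (chr5:30012964-30013113, plus strand) and *Nfkbia* (chr12:55492648-55492837, minus strand, GRCm38.p6, RefSeq) are shown as examples among the rising genes, with the match in capitals, ending at the base before the start.
Il6: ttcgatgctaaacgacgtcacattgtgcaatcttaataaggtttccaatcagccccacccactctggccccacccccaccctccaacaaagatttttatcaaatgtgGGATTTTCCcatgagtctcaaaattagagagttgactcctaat
Nfkbia: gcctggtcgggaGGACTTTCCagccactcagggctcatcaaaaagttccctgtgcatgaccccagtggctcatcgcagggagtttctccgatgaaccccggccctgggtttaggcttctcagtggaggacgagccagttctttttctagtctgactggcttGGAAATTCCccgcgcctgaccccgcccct

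Of 26 DUSP, SOCS, PLK and RGS genes, many of them feedback inhibitors of kinases, 12 were higher and 2 lower, or 0 lower without unstimulated replicate 2 and 1 without unstimulated replicate 1, anti-NK1.1 replicate 1 or 3. *Rgs16*, a brake on G protein signalling, moved from 11.6 and 12.6 to 208, 245 and 192 CPM (4.14 ± 0.21, adjusted p = 1.39e-08). *Plk3*, a stress-responsive kinase, moved from 1.77 and 1.82 to 36.7, 38.6 and 31.5 CPM (4.25 ± 0.26) and *Dusp4*, a MAP kinase phosphatase, from 2.74 and 1.82 to 46.6, 42.3 and 37.5 CPM (4.18 ± 0.39). *Cish*, an inhibitor of IL-15 signalling in NK cells, was at 55.3 and 80.8 CPM and then at 564, 419.6 and 348 CPM. Genes of proteins that mark mRNAs for decay were divided, with 34.5% higher and 13.8% lower, against 15.9% and 17.2% of all tested genes. *Zc3h12c*, of the regnase family, went from no read to 6.47, 10.4 and 9.76 CPM, at least 19.4-fold higher, and the roquin gene *Rc3h1* rose by 1.73 ± 0.27. Of the proteins that bind AU-rich elements, *Zfp36l2* fell from 254 and 253 to 100.3, 78.6 and 72.3 CPM (-1.61 ± 0.20, adjusted p = 4.17e-05) and *Zfp36* fell by 1.23 ± 0.23, while *Zfp36l1* rose by 1.65 ± 0.29. In all, 10 of 29 genes of mRNA decay were higher and 4 lower, and 5 were higher without unstimulated replicate 2.

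Of 48 lymphocyte transcription factors 13 were higher and 14 lower, 27.1% and 29.2%, against 15.9% and 17.2% of all tested genes. *Zeb2*, a factor of terminal maturation, moved from 46.7 and 48.3 to 705, 529 and 608 CPM (3.68 ± 0.22, adjusted p = 6.21e-08) and *Klf4*, a Krüppel-like factor, from 4.8 and 3.58 to 35.5, 37.7 and 37.5 CPM (3.13 ± 0.22). *Pou2af1*, a coactivator known from B cells, had no read unstimulated and 5.07, 5.46 and 6.93 CPM stimulated, at least 12.7-fold higher, while the B cell markers summed to under 1 CPM. *Eomes*, a T-box factor of NK cells, was at 409.6 and 278 CPM and then at 111, 130.4 and 95.7 CPM (-1.60 ± 0.24). *Lef1* fell from 198 and 219.6 to 53.7, 52.7 and 50.5 CPM (adjusted p = 5.52e-06), its relative *Tcf7* fell by 1.49 ± 0.22 and *Nfil3*, required for NK cell development, fell by 1.60 ± 0.26. *Tbx21*, the gene of T-bet, was called higher (0.73 ± 0.24, adjusted p = 0.028), but not without unstimulated replicate 1 (adjusted p = 0.218), anti-NK1.1 replicate 1 (adjusted p = 0.0949) or anti-NK1.1 replicate 2 (adjusted p = 0.0654). Among chromatin enzymes, 3 of 37 were higher and 10 lower, which is 8.1% and 27.0% of that list. The histone demethylase *Kdm6b* moved from 14 and 13.8 to 136, 140.2 and 111 CPM (3.20 ± 0.23, adjusted p = 2.69e-07) and the de novo DNA methyltransferase *Dnmt3a* rose by 2.50 ± 0.32, while the 5-methylcytosine oxidase *Tet1* was at 6.46 and 5.52 CPM and then at 0.0117, 0.402 and 0.117 CPM (adjusted p = 4.31e-05).

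Genes of the killing machinery showed no common direction, with 7 of 34 higher and 9 lower, and 5 lower without unstimulated replicate 2 or without anti-NK1.1 replicate 3. These are 20.6% and 26.5% of the list, near the shares of all tested genes. *Gzma*, granzyme A, fell from 5462 and 5818 to 1839.7, 1613 and 1133 CPM (-1.91 ± 0.26). *Prf1*, the pore-forming perforin, was at 2989 and 2209 CPM unstimulated and 2048, 3030.3 and 2147 CPM stimulated, so the groups overlapped. *Srgn*, the proteoglycan that packs granules, rose by 1.90 ± 0.25, and *Serpinb9*, the inhibitor that protects the killer from its own granzyme B, by 1.28 ± 0.21. Granzyme genes are similar to each other, so reads could be shared between them.

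**Figure D3:**
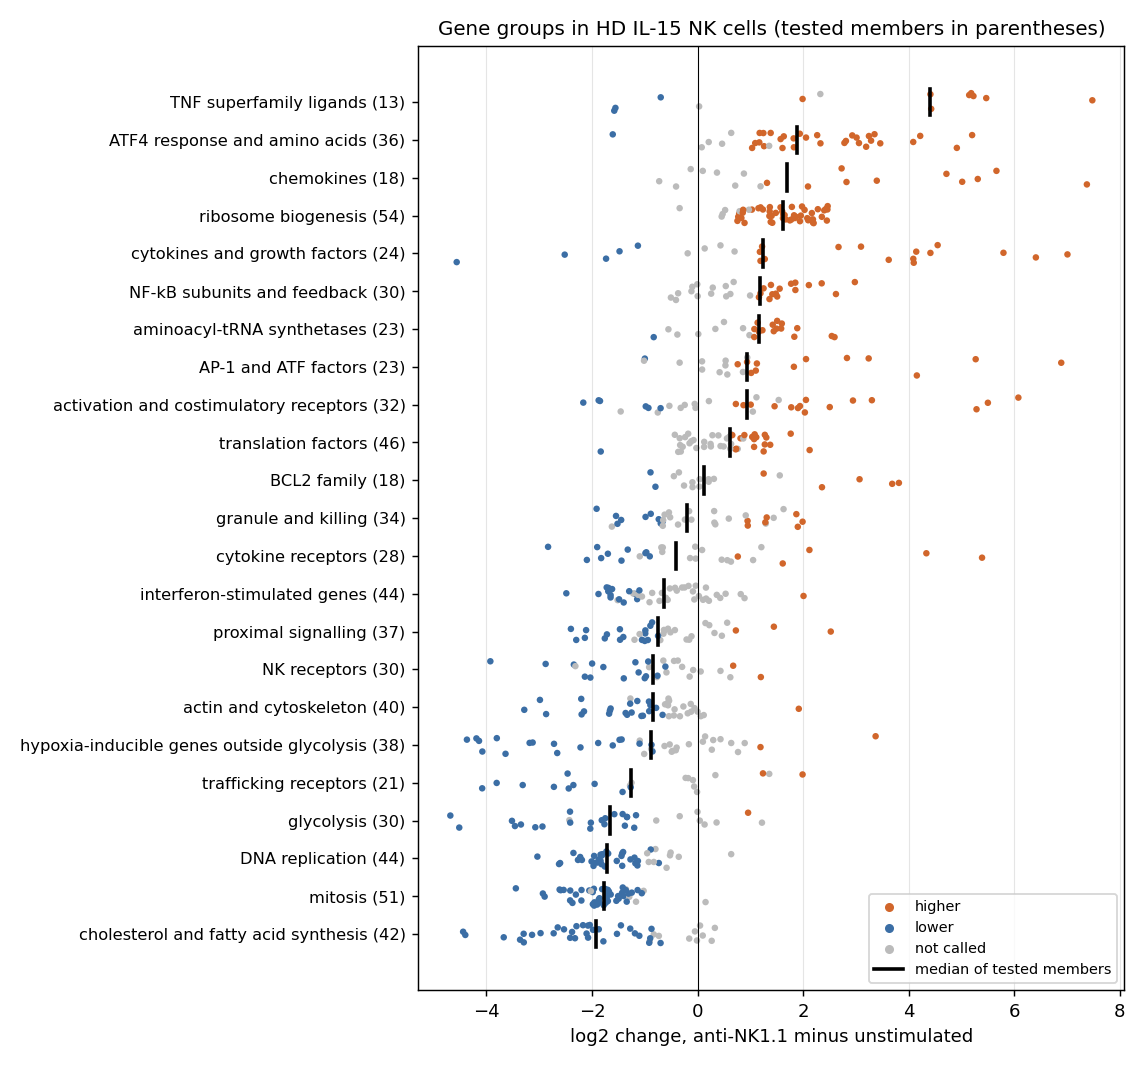
Log2 change (horizontal axis) of every tested member of 23 gene groups (rows, tested members in parentheses), with genes called higher in orange, called lower in blue and others in grey. A black bar marks the median of the tested members, from 4.41 for TNF superfamily ligands to -1.92 for cholesterol and fatty acid synthesis, beside -0.01 for all tested genes.

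Genes of amino acid supply rose together. Of 36 tested genes of the ATF4 response, which acts when amino acids are short or the endoplasmic reticulum is stressed, 30 were higher and 1 was lower, with a median of 1.88. *Atf4* itself (chromosome 15, 80255184 to 80257541, plus strand) moved from 279.9 and 379.8 to 1248, 1304 and 1529.9 CPM (2.06 ± 0.24, adjusted p = 1.88e-05). *Mthfd2*, the mitochondrial enzyme of one-carbon metabolism, was at 248 and 203 CPM unstimulated and at 1727, 1981 and 1911 CPM stimulated (3.06 ± 0.24, adjusted p = 7.05e-07). The 3 stimulated libraries lay within a narrow range well above the others. *Asns*, asparagine synthetase, moved from 23.9 and 24.7 to 235, 277 and 191 CPM (3.25 ± 0.27), and *Cth*, which makes cysteine from cystathionine, went from 0.752 and 0.198 to 22.4, 16.6 and 14.3 CPM (adjusted p = 3.37e-06). Of the transporters, *Slc7a5* moved from 14.9 and 28 to 177, 149 and 113 CPM (2.81 ± 0.31), its partner chain *Slc3a2* from 57.3 and 76.2 to 371, 349.9 and 282 CPM (2.33 ± 0.24), and the cystine carrier *Slc7a11* from 0.28 and 0.976 to 10.3, 12.7 and 11 CPM (adjusted p = 3.38e-05). The serine synthesis genes *Phgdh* and *Psph* rose by 1.82 ± 0.24 and 2.27 ± 0.24. The lower gene was *Ddit4*, an inhibitor of mTOR that hypoxia also induces (-1.61 ± 0.31). Of 23 aminoacyl-tRNA synthetase genes and their scaffold 15 were higher and 1 lower, which was not called without unstimulated replicate 2, led by the scaffold *Eef1e1* (2.59 ± 0.30) and *Tars* (2.54 ± 0.29).

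The letters TGATGNAA, the core of the element that ATF4 binds with a C/EBP partner, stood in the 250 bases before the start in 19.4% of 31 matched ATF4 response genes, 3 of 15 synthetase genes and 2.5% of all tested genes with a promoter. Among genes called higher the share was 3.6%. The promoters of *Asns* (chr6:7693210-7693359, minus strand) and *Slc7a11* (chr3:50443614-50443763, minus strand) are printed because they hold the element, which is in capitals (GRCm38.p6, RefSeq). A match describes the letters and is not a measured site.
Asns: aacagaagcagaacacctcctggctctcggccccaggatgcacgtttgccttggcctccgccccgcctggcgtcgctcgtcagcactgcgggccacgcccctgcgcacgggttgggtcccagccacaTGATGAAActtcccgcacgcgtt
Slc7a11: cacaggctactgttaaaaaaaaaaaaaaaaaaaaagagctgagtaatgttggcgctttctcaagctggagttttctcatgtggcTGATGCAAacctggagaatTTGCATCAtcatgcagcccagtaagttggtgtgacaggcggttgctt

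Genes of ribosome assembly were higher almost throughout. Of 54 tested genes of ribosome biogenesis 48 were higher and 0 lower, with a median of 1.62. With 1 anti-NK1.1 library left out, 41 to 44 were called higher, and fewer without either unstimulated library. *Mrto4*, a ribosome maturation factor, moved from 20.1 and 20.8 to 99.4, 100.4 and 78 CPM (2.17 ± 0.24, adjusted p = 1.35e-05), *Nop16*, a nucleolar protein, from 24.2 and 29.7 to 125, 107 and 89.3 CPM (1.98 ± 0.24) and *Heatr1*, needed for transcription and processing of ribosomal RNA, from 20.3 and 16.4 to 69.1, 95.9 and 124 CPM (2.35 ± 0.30). Both unstimulated libraries were below every stimulated library in all 3 genes. The genes of the cytosolic ribosomal proteins themselves were apart, with 1 of 79 higher and 0 lower. Without unstimulated replicate 1 or anti-NK1.1 replicate 1 or 2 none was higher, and without unstimulated replicate 2 it was 2. Translation factors had 18 of 46 higher and 1 lower, 11 higher without unstimulated replicate 1, and 2 lower without anti-NK1.1 replicate 3. The cap-binding protein gene *Eif4e* rose by 1.27 ± 0.20, and the lower gene was *Eef2k*, a kinase that slows elongation (-1.83 ± 0.23). Mitochondrial import had 17 of 28 higher and 0 lower, led by *Timm10* (2.37 ± 0.24), and 9 higher without unstimulated replicate 1. Among endoplasmic reticulum chaperones 15 of 29 were higher and 2 lower. Without unstimulated replicate 1, 8 were higher and 0 lower, and without unstimulated replicate 2 or anti-NK1.1 replicate 2 or 3, 1 was lower. Examples are *Herpud1* at 1.77 ± 0.23 and *Dnajb9* at 1.88 ± 0.25.

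*Myc*, a driver of ribosome production, moved from 13.2 and 14.4 to 59.4, 54.8 and 53.9 CPM, and 3 genes of its antagonists fell. In the MYC and MAX network as a whole 3 of 13 genes were higher and 4 lower, 23.1% and 30.8%, against 15.9% and 17.2% of all tested genes. *Mxi1* went from 122 and 123 to 7.71, 6.53 and 13 CPM (-3.80 ± 0.51), *Mxd4* from 103 and 116 to 23.6, 28.9 and 22.4 CPM (-2.14 ± 0.22, adjusted p = 7.11e-06) and *Mxd3* from 29.8 and 39.1 to 2.49, 4.21 and 3.69 CPM (-3.30 ± 0.41). These proteins compete with MYC for the shared partner MAX, and for each gene the groups were separate. In the polyamine route, *Odc1*, its rate-limiting enzyme, moved from 173 and 198 to 1006, 956 and 735 CPM (2.27 ± 0.24, adjusted p = 8.55e-06) and *Srm*, spermidine synthase, from 40.5 and 50.3 to 286, 251 and 191 CPM (2.40 ± 0.24). *Sat1*, which starts polyamine breakdown, fell by 1.43 ± 0.25. The cytidine nucleotide synthases split, with *Ctps* at 1.86 ± 0.22 and *Ctps2* at -1.67 ± 0.24.

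The glucose route was lower along most of its length. Of 30 tested glycolysis genes 21 were lower and 1 was higher, with a median of -1.66. The lactate exporter *Slc16a3* (MCT4, chromosome 11, 120948480 to 120960868, plus strand) went from 186 and 249 CPM to 7.35, 8.01 and 9.76 CPM (-4.68 ± 0.46, adjusted p = 5.03e-06). Stimulated libraries held a small fraction of the unstimulated level. *Pfkl*, a subunit of phosphofructokinase, fell from 115 and 145 to 11.9, 12.6 and 10.8 CPM (-3.46 ± 0.26, adjusted p = 3.59e-07), *Tpi1*, triosephosphate isomerase, from 671 and 894 to 80.6, 80.4 and 68.1 CPM (-3.35 ± 0.22) and *Pkm*, pyruvate kinase, from 1074 and 1479.8 to 173, 176 and 147 CPM (-2.94 ± 0.22). *Gapdh* was at 587 and 731 CPM unstimulated and at 207, 232 and 154 CPM stimulated (-1.75 ± 0.31), and it was named after its values were seen because it is a common reference gene. *Ldha*, lactate dehydrogenase, fell by 1.76 ± 0.25 and the glucose transporter *Slc2a1* fell by 1.42 ± 0.28. *Pygl*, a glycogen phosphorylase, was at 52.1 and 50.9 CPM and then at 2.31, 2.5 and 1.8 CPM (-4.51 ± 0.37). The hexokinases went in opposite directions, as *Hk1* fell from 207 and 153 to 28.5, 30.3 and 42.8 CPM (-2.42 ± 0.31, adjusted p = 4.17e-05) while *Hk2* rose from 117 and 100 to 195, 232 and 206 CPM (0.96 ± 0.19, adjusted p = 0.00168). *Hk2* and *Slc2a1* were named after their values were seen.

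**Figure D4:**
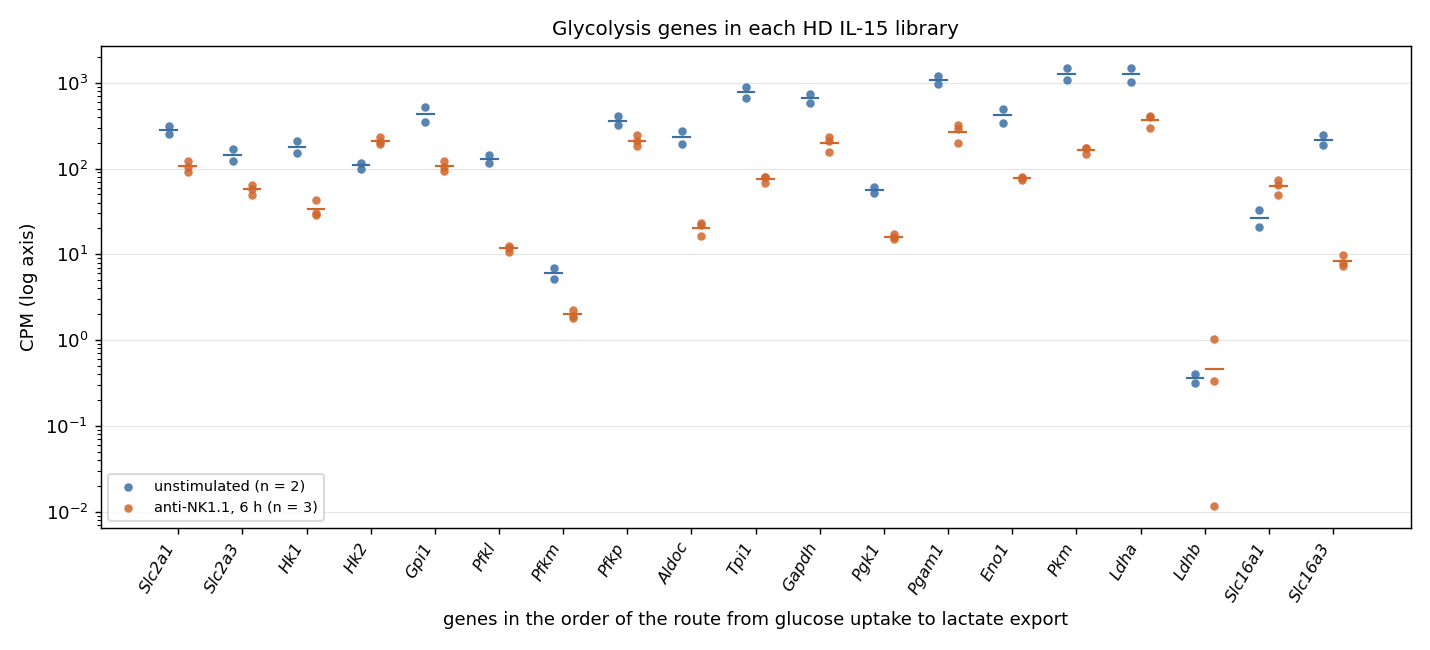
CPM (vertical log axis) of glycolysis genes in each library, ordered from glucose uptake to lactate export, with blue for the 2 unstimulated and orange for the 3 anti-NK1.1 libraries and a short line at each group's mean. Orange lies under blue for most genes and over it for *Hk2* and *Slc16a1*, and the groups of *Ldhb* overlap, with its lowest point a library without a read.

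Of 38 tested genes that hypoxia induces, other than those of glycolysis, 18 were lower and 2 higher, with a median of -0.88. *Bnip3*, a mitophagy receptor (chromosome 7, 138890836 to 138909519, minus strand), fell from 156 and 211 to 9.53, 11.2 and 10.1 CPM (-4.14 ± 0.28, adjusted p = 1.78e-07) and its relative *Bnip3l* from 887 and 863 to 136, 129.7 and 133 CPM (-2.72 ± 0.29). *Egln3*, a prolyl hydroxylase that marks hypoxia-inducible factor for destruction, went from 61.5 and 81 to 6.73, 6.44 and 4.05 CPM (-3.64 ± 0.36) and its paralog *Egln1* from 167 and 171 to 32.5, 25.2 and 23.3 CPM (-2.66 ± 0.20). All 3 stimulated libraries were below both others in each of them. *Pdk1*, which keeps pyruvate out of mitochondria, fell by 3.12 ± 0.30, *Ankrd37* fell by 4.08 ± 0.48 and *Narf* fell by 4.19 ± 0.46. *Hif1a*, the gene of the factor's α subunit, was at 126 and 110.5 CPM unstimulated and 161, 212 and 237 CPM stimulated (0.77 ± 0.30, adjusted p = 0.0597). It was called higher with the 5 HD libraries alone (adjusted p = 0.0383), with library pool as a factor (adjusted p = 0.0171) and without anti-NK1.1 replicate 1 (adjusted p = 0.0465), and it was named after its values were seen. The higher genes were *Car12*, a carbonic anhydrase (3.37 ± 0.55), and *Vegfa* (1.19 ± 0.33), which was named after its values were seen and was not called without unstimulated replicate 2 (adjusted p = 0.103) or anti-NK1.1 replicate 1 (adjusted p = 0.0517).

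The letters ACGTG, the core of the hypoxia response element, stood on either strand of the 250 bases before the start in 55.2% of 29 matched glycolysis genes and 61.3% of 31 matched genes outside glycolysis, against 25.2% of all tested genes with a promoter. They stood in 24.0% of genes called lower and 27.4% of genes called higher. Whether such letters have a part in the changes was not tested. The core is also part of the E-box CACGTG, which MYC and MXD proteins bind. The promoters of *Slc16a3* (chr11:120948917-120949066, plus strand), *Bnip3* (chr7:138909507-138909656, minus strand) and *Pgk1*, phosphoglycerate kinase (chrX:106186940-106187099, plus strand), show such cores in capitals (GRCm38.p6, RefSeq), and *Pgk1* fell by 1.81 ± 0.30. These promoters, like the others printed, were chosen after the values were seen.
Slc16a3: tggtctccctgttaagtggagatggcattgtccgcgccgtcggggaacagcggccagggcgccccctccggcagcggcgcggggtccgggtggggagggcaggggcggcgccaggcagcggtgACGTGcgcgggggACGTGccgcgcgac
Bnip3: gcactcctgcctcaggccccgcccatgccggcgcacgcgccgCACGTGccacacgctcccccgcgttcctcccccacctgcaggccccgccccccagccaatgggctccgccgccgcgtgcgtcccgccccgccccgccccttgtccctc
Pgk1: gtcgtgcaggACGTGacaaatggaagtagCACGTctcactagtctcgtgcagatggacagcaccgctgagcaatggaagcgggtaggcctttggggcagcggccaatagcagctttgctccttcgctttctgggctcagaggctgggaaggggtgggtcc

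Of the groups described, lipid synthesis had the lowest median. Of 42 tested genes of cholesterol and fatty acid synthesis 32 were lower and 0 higher, with a median of -1.92. With 1 anti-NK1.1 library left out, 30 to 31 were called lower, and fewer without unstimulated replicate 2. *Scd2*, a stearoyl-CoA desaturase, fell from 440.2 and 489 to 44.6, 38.1 and 53.9 CPM (-3.36 ± 0.20, adjusted p = 6.21e-08) and *Fads2*, a fatty acid desaturase, from 138 and 95 to 4.49, 5.21 and 6.58 CPM (-4.40 ± 0.36). In the sterol route, *Hmgcs1*, which makes the precursor of mevalonate, fell from 265 and 239 to 41.6, 41.8 and 37.1 CPM (-2.65 ± 0.32). *Fdft1*, squalene synthase, fell by 2.97 ± 0.35 and *Dhcr7*, which completes cholesterol, fell by 3.13 ± 0.32. The sterol carrier *Stard4* went the same way (-2.41 ± 0.23). The CCAAT box, bound by NF-Y, stood in the promoters of 77.4% of 31 matched genes of the list, 76.2% of 42 mitosis genes, 63.9% of 36 DNA replication genes and 40.4% of all tested genes with a promoter. Among genes called lower the share was 44.4%. The sterol element core TCACNCCAC stood in 1 of the 31 genes and in 2 of 29 glycolysis genes, against 1.2% of all.

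The cell cycle was lower from DNA replication to division. Of 44 tested DNA replication genes 35 were lower and 0 higher, with a median of -1.71. Of 51 tested mitosis genes 45 were lower and 0 higher, with a median of -1.78. With 1 anti-NK1.1 library left out, 34 replication and 40 to 44 mitosis genes were called lower, and fewer of both without either unstimulated library. *Lig1*, the ligase of lagging-strand synthesis, fell from 510.3 and 435 to 52.1, 52.3 and 69.7 CPM (-3.03 ± 0.37, adjusted p = 3.47e-05), *Mcm6*, a subunit of the replicative helicase, from 122 and 163 to 32.7, 28.9 and 30.8 CPM (-2.19 ± 0.20) and *Tk1*, thymidine kinase, fell by 3.08 ± 0.41. *Ccnb2*, a mitotic cyclin, went from 313 and 169.7 to 24.5, 17.9 and 21.5 CPM (-3.44 ± 0.27, adjusted p = 6.94e-07), *Stmn1*, a microtubule destabiliser, from 403 and 579 to 65.3, 68.5 and 61.1 CPM (-2.90 ± 0.21) and *Birc5*, survivin, from 107 and 179 to 26.7, 19.1 and 23.6 CPM (-2.59 ± 0.33). Stimulated and unstimulated libraries were separate in all of these genes.

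Of 29 tested cyclins, CDKs and their inhibitors 10 were lower and 7 higher, with a median of -0.74. These are 34.5% and 24.1%, against 17.2% and 15.9% of all tested genes. The D-type cyclins split. *Ccnd2*, cyclin D2, moved from 1431 and 1304 to 4235, 4985 and 4539 CPM (1.74 ± 0.23, adjusted p = 5.48e-05), *Ccnd1*, cyclin D1, from 2.53 and 1.41 to 61.7, 67.4 and 55.8 CPM (4.97 ± 0.30) and *Cdk6*, their kinase partner, from 396 and 342 to 787, 935 and 719.6 CPM (1.14 ± 0.23). *Ccnd3*, the remaining D-type cyclin, fell from 136 and 173 to 27.7, 21.6 and 23.7 CPM (-2.66 ± 0.26). The inhibitors split as well. *Cdkn1a* (p21) moved from 199 and 198 to 913, 1595 and 630.0 CPM (2.29 ± 0.39) and *Cdkn2b* rose by 4.18 ± 0.80, while *Cdkn2d* fell by 2.75 ± 0.31, *Cdkn2c* fell by 1.80 ± 0.27 and *Cdkn1b* (p27) fell by 1.63 ± 0.26. *E2f1* and *E2f2*, activators of replication genes, changed by -1.96 ± 0.37 and -2.40 ± 0.31.

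The E2F letters TTTCCCGC or TTTGGCGC stood in 16.7% of 36 matched replication promoters and 3.0% of all, and the letters TTTGAA of the cell cycle homology region in 40.5% of 42 matched mitosis promoters and 12.9% of all. Among genes called lower the shares were 3.6% for the E2F letters and 13.5% for TTTGAA. *Mcm6* (chr1:128359706-128359855, minus strand) and *Cdk1* (chr10:69352913-69353062, minus strand), the kinase that starts mitosis (-1.43 ± 0.23), are printed as examples of each (GRCm38.p6, RefSeq), with E2F letters in capitals in the first and TTTGAA in the second.
Mcm6: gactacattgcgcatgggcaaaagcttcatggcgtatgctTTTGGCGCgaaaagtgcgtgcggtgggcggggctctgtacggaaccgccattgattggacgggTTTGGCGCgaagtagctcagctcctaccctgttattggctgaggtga
Cdk1: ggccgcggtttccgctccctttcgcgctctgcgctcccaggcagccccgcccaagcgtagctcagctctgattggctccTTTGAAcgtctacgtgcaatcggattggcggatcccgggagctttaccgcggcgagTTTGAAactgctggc

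A minority of the BCL2 family was called, 27.8% higher and 11.1% lower, against 15.9% and 17.2% of all tested genes. *Bcl2l1*, BCL-XL, moved from 42.9 and 50.2 to 260.5, 256 and 203 CPM (2.36 ± 0.21, adjusted p = 1.93e-06) and *Bcl2a1b*, an A1 isoform, from 4.89 and 3.65 to 52.6, 61 and 52.8 CPM (3.69 ± 0.29). The A1 genes are near-identical copies, so their separate values are uncertain. The pro-death gene *Bcl2l11* (BIM) was higher too (1.25 ± 0.27). *Bcl2* was at 441 and 390.5 CPM unstimulated and 498, 246 and 281 CPM stimulated and its groups overlapped, but it was called lower without anti-NK1.1 replicate 1 (-0.66, adjusted p = 0.0432). In all, 5 of 18 were higher and 2 lower, with 0 lower without unstimulated replicate 2 and 1 without anti-NK1.1 replicate 3.

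Genes of the interferon response were more often lower than higher, while *Ifng* rose. Of 44 tested interferon-stimulated genes 14 (31.8%) were lower and 1 (2.3%) was higher. Without unstimulated replicate 2, 9 were lower, and without either unstimulated library none was higher. *Samhd1*, a nucleotide hydrolase that restricts viruses, fell from 65.8 and 70.4 to 12.3, 15.5 and 9.23 CPM (-2.49 ± 0.23, adjusted p = 3.21e-06) and *Gbp7*, a guanylate-binding protein, from 221 and 259 to 74, 71.5 and 72.5 CPM (-1.72 ± 0.22). The ISRE core GAAANNGAA stood in 58.1% of 31 matched promoters of this list, 7.6% of all and 7.7% of those of genes called lower. In the proteasome 7 of 40 genes were higher and 3 lower, and 4 were higher without either unstimulated library. These are 17.5% higher and 7.5% lower, against 15.9% and 17.2% of all tested genes, so the share higher was near that of all. The lower proteasome genes were the interferon-inducible catalytic subunits *Psmb8* (-1.29 ± 0.27), *Psmb9* (-1.97 ± 0.26) and *Psmb10* (-1.22 ± 0.23).

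Structural genes of the cytoskeleton were more often lower than higher, with 21 of 40 lower and 1 higher, and 13 lower without unstimulated replicate 2. *Vim*, vimentin, fell from 2568 and 4539 to 306, 375 and 377 CPM (-3.28 ± 0.39, adjusted p = 2.38e-05), the tubulin *Tubb5* from 2023 and 2655 to 369, 335 and 259 CPM (-2.87 ± 0.24) and the actin-sequestering *Tmsb4x* from 9853 and 10985 to 3452, 3512 and 2855 CPM (-1.67 ± 0.27). The unstimulated libraries were above all stimulated ones in each. *Tubb2a*, another tubulin, rose by 1.92 ± 0.24. Tubulin genes resemble each other, so reads could be shared.

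Of the PI3K and mTOR route 8 of 40 genes were higher and 10 lower, and 4 higher without unstimulated replicate 2. These shares are near those of all tested genes. *Pik3ip1*, a membrane inhibitor of PI3K, fell from 27.3 and 23.7 to 1.81, 1.28 and 1.33 CPM (-4.06 ± 0.33, adjusted p = 7.54e-07). The leucine sensor *Sesn2* rose by 3.19 ± 0.53 while its paralog *Sesn3* fell by 1.55 ± 0.25. *Rheb*, the GTPase that switches mTOR on, moved from 34.5 and 38 to 91.8, 99.9 and 84.6 CPM (1.34 ± 0.20).

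To place the response, 20 genes were compared with the same contrast in naive cells, for which the difference of both responses was tested in the same model. The groups shared no library, but all HD libraries and all naive libraries were in different pools, so culture and pool cannot be told apart. *Tnf* changed by 4.41 ± 0.31 in HD cells and by -0.12 ± 0.28 in naive cells, a difference of 4.53 ± 0.42 (limma, adjusted p = 8.71e-06). *Nr4a1* changed by 2.40 ± 0.23 and -0.27 ± 0.21, and *Myc* by 2.02 ± 0.25 and -0.49 ± 0.22, with differences of 2.66 ± 0.31 and 2.51 ± 0.33 (adjusted p = 6.86e-05 and 2.09e-04). *Eomes* went in opposite directions, by -1.60 ± 0.24 in HD and 0.92 ± 0.22 in naive cells, a difference of -2.52 ± 0.33 (adjusted p = 1.74e-04). For *Klrb1c* the responses were -3.92 and -3.43, a difference of -0.49 ± 0.27 that was not called (adjusted p = 0.237). *Egr2*, an EGR-family zinc finger factor, rose by 4.32 and 4.69, with a difference of -0.38 ± 0.41 (adjusted p = 0.588), and *Cish* rose by 2.70 and 2.42, with a difference of 0.29 ± 0.36 (adjusted p = 0.647).

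**Figure D5:**
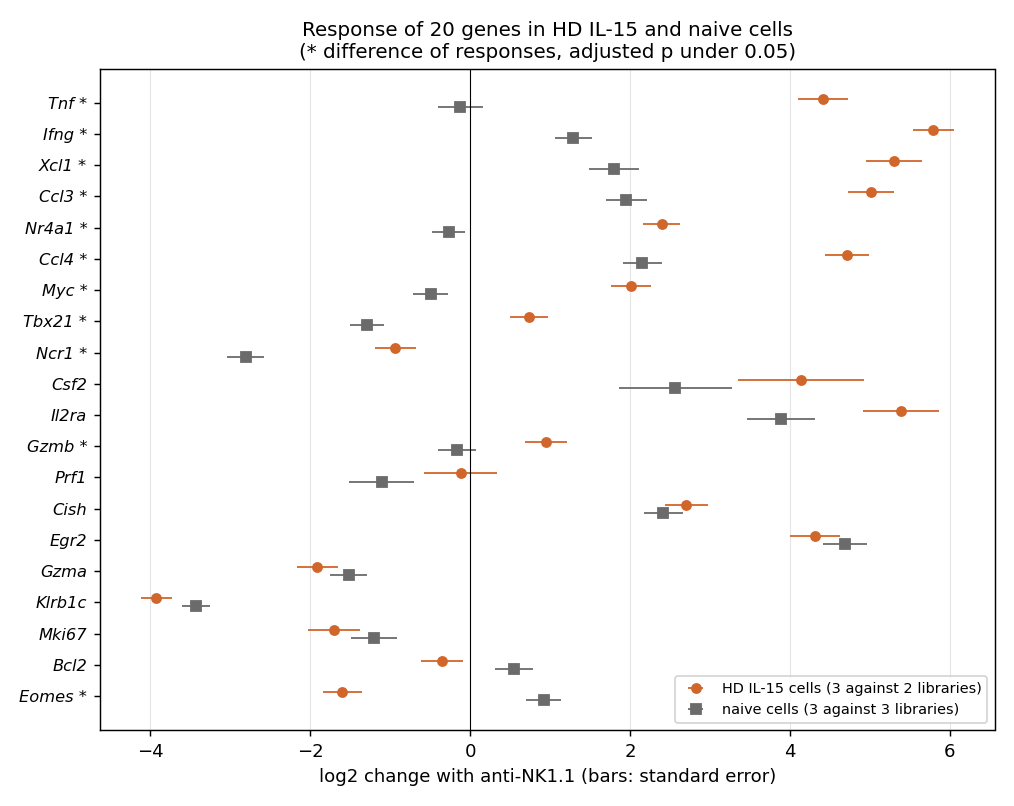
Log2 change with anti-NK1.1 ± standard error (horizontal axis) of 20 genes in HD IL-15 cells (orange circles) and naive cells (grey squares), ordered by the difference of both responses. Asterisks mark the 11 genes with an adjusted p under 0.05 for the difference, with *Tnf* at 4.53 at the top and *Eomes* at -2.52 at the bottom.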

How the data were processed

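mRNA of 13 NK cell samples was captured on oligo(dT) beads, reverse transcribed, pooled and sequenced as strand-specific libraries, per the labels' protocols. Reads were placed on mm10, per the submitters' processing notes. The authors deposited 1 table of 11989 genes holding log2 values of quantile-normalized counts plus 1, although its header calls them counts. Its unit was settled from the values: they run from 0 to 17.92 and the library medians differ by 0.0082. Quantile normalization gives every library the same distribution, so a global change of RNA content cannot be seen. Each library's reads were recovered from the order of its distinct values. As a check, 96.2% of back-transformed values under 6, times the 13 libraries, were whole within 0.05.

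Values were back-transformed and scaled to CPM. Genes that reached 10 on the back-transformed scale in 2 libraries were tested, which left 11543 and removed 446. limma 3.58.1 in R 4.3.3 was fitted to the log2 values with 5 group means over all 13 libraries, a variance trend (residual df 8, prior df 6.30) and Benjamini-Hochberg adjustment at 0.05. For a group without reads, folds are lower bounds against 3 reads per library. Such bounds cover counting error only. The genes named are the 15 largest increases and decreases whose mean reached 20 CPM and whose groups were separate, up to 6 members per list by smallest p (12 for long lists) and a panel of 20 genes, and others are marked as chosen after their values were seen. Where a gene was named by separate groups or small p, the separation described for it follows at least in part from that choice. The comparison, its members and all lists were chosen with earlier results of these data known.

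Coordinates come from GENCODE M21 (mm10), which matched 11983 of 11989 IDs, and promoters from RefSeq (GRCm38.p6), which matched 9246 tested genes, with 250 bases before the start searched. Tables were handled with Python 3.11.15, pandas 2.3.3 and numpy 2.4.6. The 16 alternatives covered filters, offsets, scaling, moderation, a test on recovered reads with limma-voom, library pool, each HD library left out and a replicate block. A few genes are not reported here.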

Additional observations from a re-analysis of the deposited data

Results flagged for a closer look

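For 11 of the 20 panel genes the anti-NK1.1 response of HD cells differed from that of naive cells by the limma test of the difference (Benjamini-Hochberg adjusted over all tested genes). Culture and library pool cannot be told apart in these differences, given as HD minus naive on the log2 scale. The difference was 4.53 for *Tnf*, 4.50 for *Ifng*, 3.50 for *Xcl1*, 3.06 for *Ccl3* and 2.56 for *Ccl4*, which are secreted products. It was 2.66 for *Nr4a1*, 2.51 for *Myc* and 2.03 for *Tbx21*, which encode transcription factors, and -2.52 for *Eomes*. *Tbx21* fell by 1.29 in naive cells, and *Ncr1*, the gene of NKp46, fell by 2.81 there, with differences of 2.03 and 1.87. *Gzmb*, granzyme B, had the smallest difference, 1.11 (adjusted p = 0.0499), which was not called without any 1 of the 5 HD libraries (adjusted p 0.0702 to 0.157).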

How the results depend on the processing

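The main counts were 1834 genes higher and 1989 lower. Against a fold change of 1.5 (limma's treat) they were 826 and 856, since that test asks for a change beyond 1.5-fold. With 1 HD library left out they ranged from 1274 to 1607 higher and from 1235 to 1716 lower, with the lowest of each without unstimulated replicate 2, where 1 unstimulated library is left and is assumed to vary like the other groups. Recovered reads with limma-voom gave 1732 and 2293. Other filters, offsets, scalings, moderation, the HD libraries alone and the pool term gave 1704 to 1903 higher and 1894 to 2074 lower. Whether the replicate numbers pair the samples is not known. Deviations of same-numbered libraries correlated at -0.143 and 0.0332. The deviations of the 2 unstimulated libraries from their mean mirror each other, so these values cannot decide it. With the replicate block the counts were 1502 and 1582. A value in the text or on a figure axis was given for 230 tested genes. Of these, 211 kept their call under each of the 16 alternatives that tested them. A call changed for 19, and no called gene changed direction. Genes that were not called could change direction and still count as kept, as *Ccl6* did without unstimulated replicate 2. The stricter filter left a few of the 230 untested, and these were judged on the other alternatives. Depth limits genes near 3 reads per library, whose folds are bounds. With 2 unstimulated libraries, the spread of that group rests on the model shared by all groups.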
